A study of Homo sapiens with 4 samples.

Results

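The array of THP-1 cells transfected with a miR-27b-3p mimic was compared directly with the array of cells transfected with a mimic labelled let-7d-5p. These were 2 of the 4 arrays of a series on human THP-1 cells, an established line from a monocytic leukaemia. All cells had been kept for 2 days in 100 ng/ml phorbol myristate acetate (PMA), which makes the line macrophage-like, before a 24 h transfection with a microRNA mimic carried by a cationic lipid. The other arrays held cells given a negative control mimic or a miR-151a-5p mimic, and they served here only to show on which side a difference lay. Every group had 1 array of 1 cell line, so that no difference below has a replicate check, and no p-value was computed. For each gene the log2 signal on the let-7d-5p array was subtracted from that on the miR-27b-3p array. The difference was taken for all 17709 of 21448 probe sets that name 1 gene, which cover 17687 genes. Where a gene is given 4 log2 signals, they stand in the order control, let-7d-5p, then miR-27b-3p, and last miR-151a-5p.

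The identity of the let-7 mimic is not settled by the sources. The sample is titled let-7d-5p, but let-7a-5p is written in the series' design text and in its treatment protocol. The study's text names no let-7d-5p mimic and places its let-7a-5p and let-7d-3p mimics on arrays outside this series. The array is called by its title below. The characteristics field also calls the line lymphocyte-like. Of 12 measured monocyte and macrophage markers, 11 lay above background on the arrays, among them CSF1R, the receptor of macrophage colony-stimulating factor, at a log2 signal of 15.81 on both arrays, and CD68, a lysosomal protein of macrophages, at 15.41 with let-7d-5p and 15.25 with miR-27b-3p. MRC1, the mannose receptor, lay below background at 5.01 and 5.20. Of 9 measured T and NK markers, 4 lay above background on at least 1 array, and of 5 measured B and plasma cell markers, 3 did. The T-cell receptor chain CD3D lay below background at 3.29 and 3.91, and so did the B-cell antigen MS4A1 at 4.29 and 4.55. The B-cell markers CD79A and PAX5 lay above it, at 7.66 and 7.72 with let-7d-5p and at 8.03 and 7.62 with miR-27b-3p. The granule protein GNLY, which was listed as a T and NK marker, read 11.22 and 11.02.

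MicroRNAs are short RNAs that guide Argonaute proteins to messenger RNAs, mostly through pairing between the seed near their 5′ end and a site in the 3′ untranslated region, and the bound messenger is usually destabilised or translated less. The let-7 family is known for holding down growth and pluripotency genes such as HMGA2 and LIN28B, and also DICER1. The miR-27 family is known in fat cells and macrophages for holding down lipid genes, among them the nuclear receptor PPARG. A mimic is a synthetic duplex that loads Argonaute with the chosen strand.

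The mature sequences are shown because the seeds decide which messengers each mimic can pair with. They are given 5′ to 3′ from RefSeq on GRCh38.p14, with the seed, bases 2 to 8, in capitals, and all 3 lie on the plus strand of chromosome 9, at chr9:95085505-95085525, chr9:94178841-94178862 and chr9:94175962-94175983 (the MIRLET7A1 copy).
hsa-miR-27b-3p: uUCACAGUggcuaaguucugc
hsa-let-7d-5p: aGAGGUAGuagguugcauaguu
hsa-let-7a-5p: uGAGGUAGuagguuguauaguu
The seeds of miR-27b-3p and let-7d-5p had the same base at 0 of 7 positions. Those of let-7d-5p and let-7a-5p were the same at 7 of 7. From let-7a-5p to let-7d-5p the substitutions were U1A and U16C, counted from the 5′ end, and neither lies in the seed. Both names in the labels therefore carry the same let-7 seed. The other arm, let-7d-3p, has a different seed, and if the array held that mimic, the values of let-7 targets below would not bear on a let-7 seed.

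The 2 arrays were alike for most genes. A background floor was set at a log2 signal of 5.36, the 95th percentile of the 349 olfactory receptor genes over both arrays, and 11913 genes lay above it on at least 1 of them. The quartiles of their differences were -0.19 and 0.18, and the standard deviation over genes was 0.33. At least 2-fold, 56 genes were higher with miR-27b-3p (0.470% of the genes above the floor) and 60 were lower (0.504%). Of the 56 higher genes, 33 lay above the floor on both arrays, and of the 60 lower genes, 41 did. The largest differences among all of these were 1.53 and -1.76 on the log2 scale, and the latter belonged to a gene below the floor on the miR-27b-3p array. Without the floor, 4 of the 349 olfactory receptor genes passed 2-fold in each direction (1.15% each). Weak signals spread more: the standard deviation was 0.42 for the 2743 genes with a mean log2 signal up to 7, and 0.23 for the 3580 genes above 11.

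**Figure D1:**
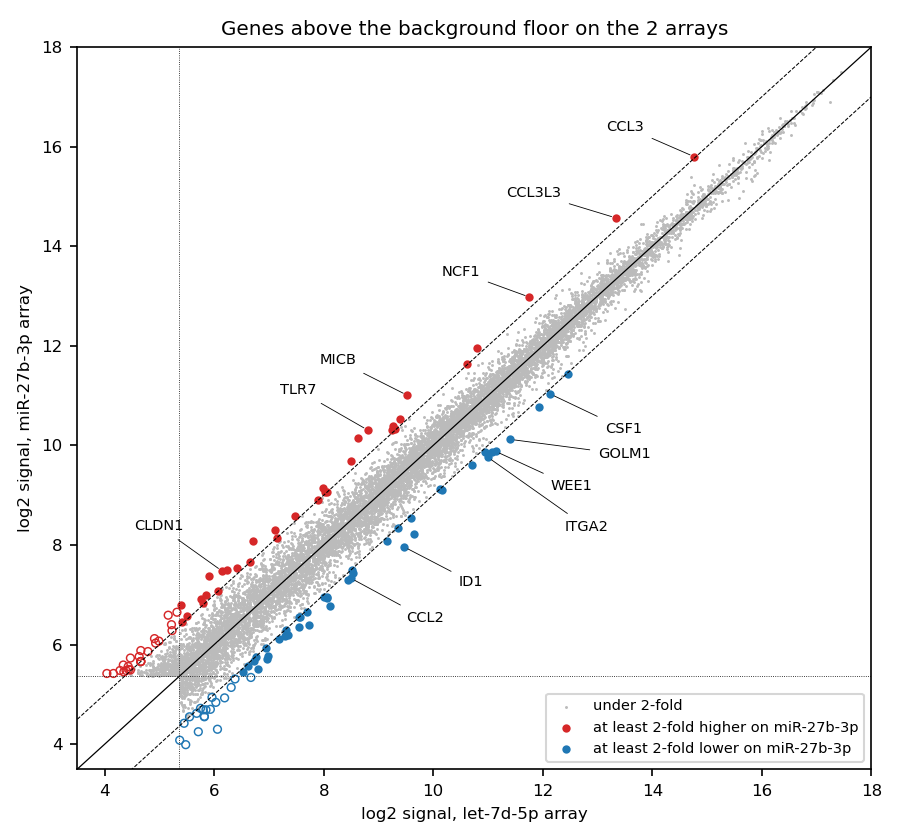
Log2 signal of each gene above the floor on the let-7d-5p array (horizontal) and the miR-27b-3p array (vertical), with the line of equality, dashed lines at 2-fold and dotted lines at the floor of 5.36. Red marks the 56 genes at least 2-fold higher and blue the 60 at least 2-fold lower with miR-27b-3p; open circles lie below the floor on 1 array.

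The other 2 arrays show on which side these genes stood apart. Of the 56 higher genes, 20 had both other arrays nearer the let-7d-5p value, 19 had both nearer the miR-27b-3p value, and 17 were split. Of the 60 lower genes the counts were 29, 14 and 17. The miR-27b-3p array was the highest of the 4 for 51 of the 56 and the lowest for 55 of the 60, while the let-7d-5p array was at the opposite end for 49 and 45. Over all genes above the floor, the miR-27b-3p array was the highest for 28.2% and the lowest for 26.3%. A gene picked for a wide gap between 2 arrays tends to put them at the ends, so these counts only describe the genes.

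Known targets are given first. Of 61 listed let-7 targets, 45 were above the floor, and 30 of these (66.7%) were higher with miR-27b-3p, against 49.0% of all genes. Their median difference was 0.15, against 0 over all genes. At 1.5-fold, 3 of the 45 were higher and 2 lower, where 3.79% and 3.87% of all genes passed, and 0 reached 2-fold. The let-7d-5p array was the lowest of the 4 for 18 of the 45, against 21.5% of all genes above the floor. The miR-27b-3p array was the highest for 16 of the 45, against 28.2%.

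DICER1, the enzyme that cuts microRNA precursors, read 9.86 on the control array, 9.92 with miR-27b-3p and 9.74 with miR-151a-5p, and with let-7d-5p it lay 0.92, or 1.89-fold, below the miR-27b-3p array. The transcription factor PLAGL2 had the same shape at 9.39, 8.53, 9.30 and 9.37, and GATM, an enzyme of creatine synthesis, read 11.19, 10.64, 11.45 and 11.31. For all 3, the let-7d-5p array lay below the other 3 arrays. IGF2BP2, an RNA-binding protein of early development, was also lowest there, at 11.43 against 11.87 with miR-27b-3p. HMGA2, the chromatin protein best known as a let-7 target, read 9.37 with let-7d-5p and 9.70 with miR-27b-3p, but it read 9.37 on the control array as well. LIN28B, which blocks let-7 maturation, lay below the floor on both arrays. In the opposite direction were HRAS, a growth signalling GTPase, with a difference of -0.60, and the nuclease DNA2, at least 1.28-fold lower with miR-27b-3p, where it lay below the floor.

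The miR-27 targets differed in the other direction. Of 60 listed, 46 were above the floor, and 33 of these (71.7%) were lower with miR-27b-3p, against 49.3% of all genes. The median was -0.18. At 1.5-fold, 9 were lower and 1 higher, where 3.87% and 3.79% of all genes passed. The miR-27b-3p array was the lowest of the 4 for 23 of the 46, against 26.3% of all genes above the floor. The let-7d-5p array was the highest for 17 of the 46, against 23.9%, so the gap lay partly on that side.

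GPAM, which makes the first step of glycerolipid synthesis, was the only member past 2-fold, reading 6.47, 6.62, 5.56 and 6.50. Its value with miR-27b-3p was only just above the floor. TFPI, an inhibitor of tissue factor in clotting, read 8.23, 8.36, 7.40 and 8.18, a difference of -0.96 or 1.95-fold. CYP1B1, a cytochrome P450, read 12.15, 12.16, 11.35 and 12.12. In these 3 genes the other 3 arrays lay close together and the miR-27b-3p array lay below them. The transcription factor ZBTB10 and the actin regulator LIMK1 were both at -0.78, the cyclin CCNG1 at -0.68 and the ubiquitin ligase subunit FBXW7 at -0.64. PPARG read 11.97, 11.99, 11.38 and 11.75. Lipoprotein lipase (LPL), which releases fatty acids from lipoproteins, read 15.31, 15.58, 14.97 and 15.33. The exception was FOXO1, a transcription factor, at 5.27 with let-7d-5p and 6.14 with miR-27b-3p, at least 1.72-fold higher because the former lies below the floor.

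**Figure D2:**
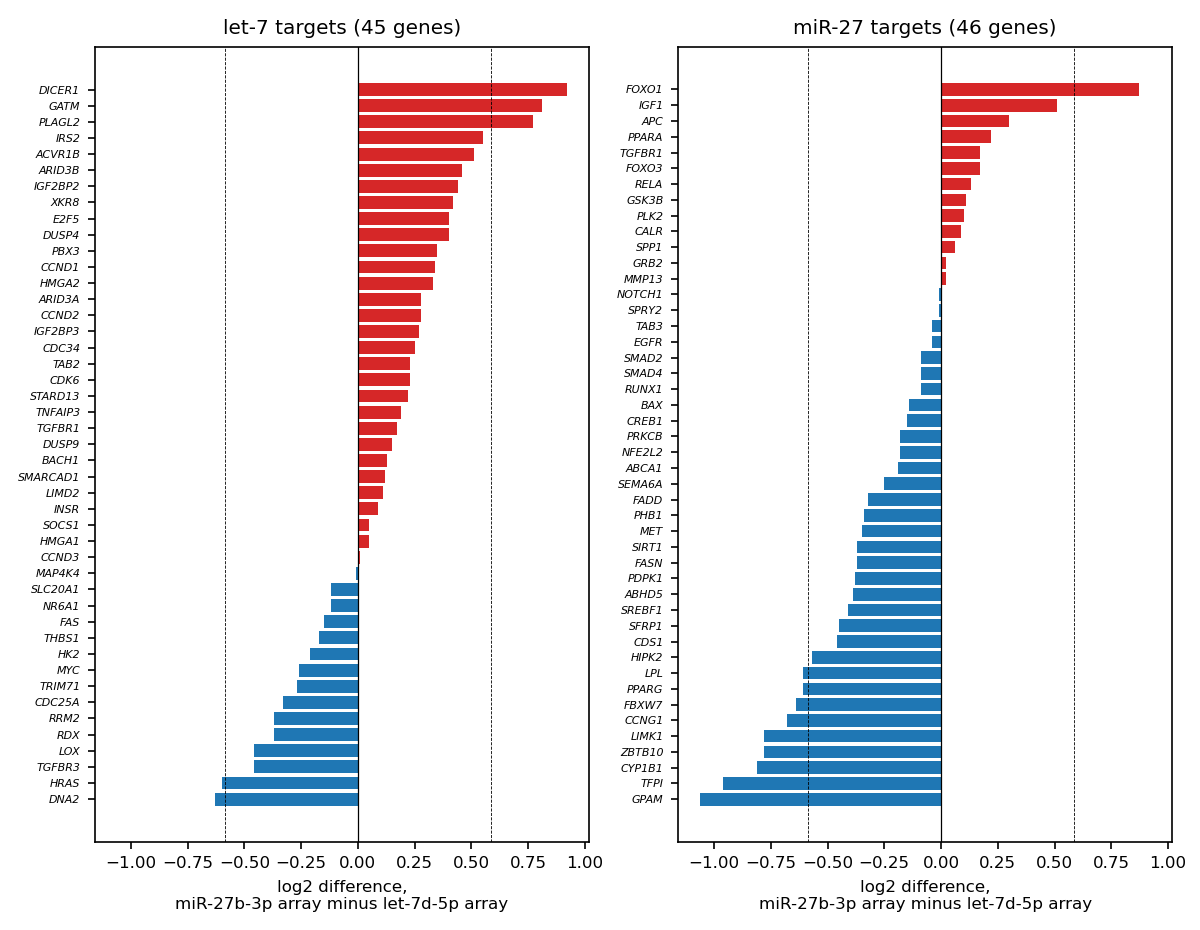
Log2 difference, miR-27b-3p array minus let-7d-5p array, for the 45 listed let-7 targets and the 46 listed miR-27 targets above the floor, with dashed lines at 1.5-fold, and with measured values drawn also where 1 array lay below the floor. Bars to the right (red) are higher with miR-27b-3p, 30 of the let-7 targets and 13 of the miR-27 targets.

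The microRNA machinery itself was nearly level between the arrays. Of 24 listed genes of microRNA processing and silencing above the floor, 12 were higher and 12 lower, with a median of -0.02. Besides DICER1, only the decapping enzyme DCP2 passed 1.5-fold, at -0.65, where 3.79% of all genes were higher and 3.87% lower by that much. AGO2, the Argonaute protein that can cut its target, read 13.75 with let-7d-5p and 13.87 with miR-27b-3p.

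Among single genes, the widest gaps above the floor on both arrays were those of LMLN, TLR7 and MICB on the higher side. TLR7, the endosomal receptor of single-stranded RNA, read 8.99 on the control array, 8.80 with let-7d-5p, 10.31 with miR-27b-3p and 9.01 with miR-151a-5p, so that the miR-27b-3p array was 2.85-fold above the let-7d-5p array and stood apart from all 3 others. NCF1, the p47phox subunit of the phagocyte oxidase, had the same shape at 11.79, 11.75, 12.98 and 11.58, although this probe set cannot be told apart from near-identical pseudogene copies. The orphan receptor GPR82 read 6.30, 5.91, 7.37 and 6.15. In these 3 genes the other arrays sat with let-7d-5p.

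MICB, a stress-induced ligand of the NKG2D receptor of natural killer cells, showed the reverse arrangement. It read 10.84, 9.52, 11.01 and 10.92, so that the let-7d-5p array lay 2.81-fold below the miR-27b-3p array and below both others. TNFSF18, the ligand of the costimulatory receptor GITR, read 6.50, 5.40, 6.79 and 6.28, and its value with let-7d-5p was only just above the floor. LMLN, a metallopeptidase, had the widest gap at 2.89-fold, but its control array (9.96) sat with miR-27b-3p (10.15) and its miR-151a-5p array (8.80) with let-7d-5p (8.62). CLDND2, LMBR1L, CMTM1 and AKNA completed the 12 highest with CLDN1 and CCL3L3, at differences of 1.38, 1.27, 1.20 and 1.18 for the first 4.

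On the lower side ID1 came first. ID1, an inhibitor of DNA-binding helix-loop-helix factors and a target of BMP signalling, read 9.10 on the control array, 9.47 with let-7d-5p, 7.96 with miR-27b-3p and 8.70 with miR-151a-5p, a 2.85-fold gap. Its relative ID3 was lower by less, at -0.59, and the list of TGF-beta and SMAD genes around them had a median of -0.025 over 24 genes. GOLM1, a Golgi membrane protein, read 11.17, 11.41, 10.12 and 11.29, with the miR-27b-3p array alone below. SUSD1 (8.94, 9.64, 8.22 and 9.30) and RNASE1, a secreted ribonuclease (10.60, 11.08, 9.86 and 10.34), were lowest with miR-27b-3p and highest with let-7d-5p.

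For several genes of the lower side it was the let-7d-5p array that stood apart. ITGA2, a collagen-binding integrin chain, read 9.76 with miR-27b-3p and 9.93 with miR-151a-5p, and its difference was -1.24 or 2.36-fold. DENND11 read 7.06, 8.11, 6.78 and 7.13, and EPDR1 read 6.72, 7.73, 6.40 and 6.77. EPGN, a ligand of the epidermal growth factor receptor, read 5.55, 6.80, 5.50 and 5.87. In these 4 genes the other 3 arrays lay close together and let-7d-5p above them. CSRP2, a LIM-domain protein, differed by -1.25 and read 6.48, 6.96, 5.71 and 6.60, so that here the miR-27b-3p array lay furthest from the rest.

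**Figure D3:**
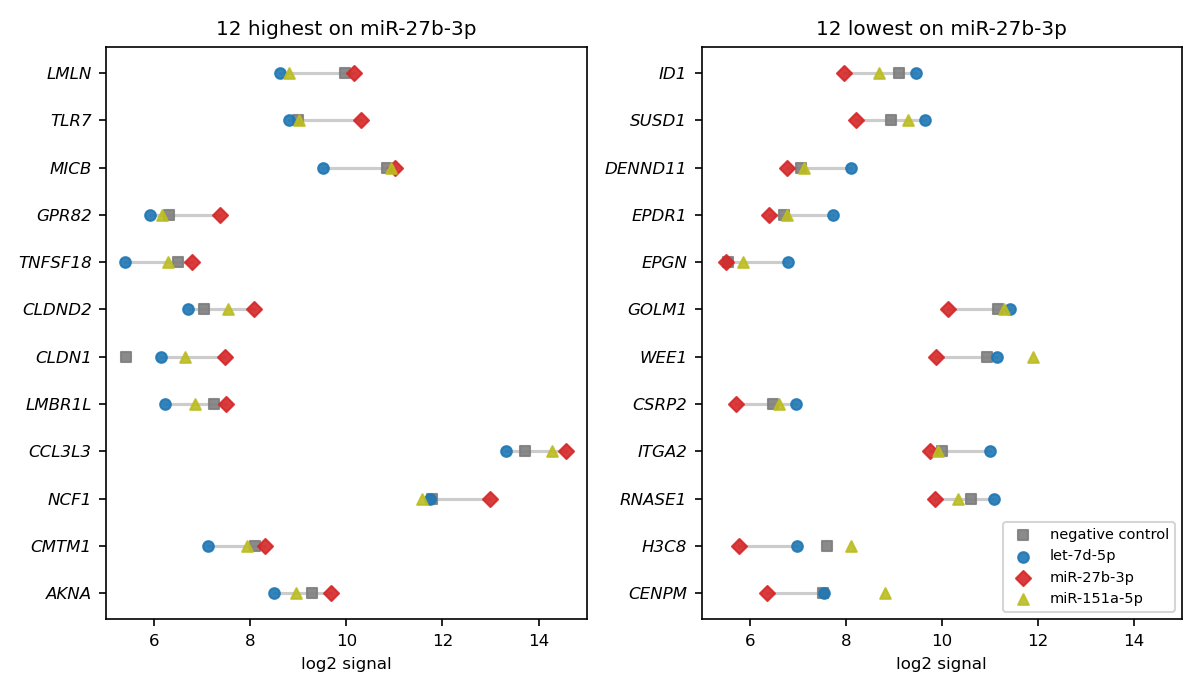
Log2 signal on each of the 4 arrays for the 12 genes with the highest and the 12 with the lowest difference among genes above the floor on both arrays, with a grey line joining the let-7d-5p (circle) and miR-27b-3p (diamond) values. TLR7 and NCF1 stand apart on the miR-27b-3p array, and MICB and ITGA2 on the let-7d-5p array.

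Genes above the floor on 1 array only have a bound and no measured fold. The 5 widest on the higher side were OR9K2, at least 2.34-fold, BICDL1, at least 2.44-fold, ADAMTS4, at least 1.29-fold, and TAFA5 and M1AP, both at least 1.04-fold. On the lower side NEURL4 was at least 1.62-fold lower, TAC4 at least 2.48-fold, DNAAF6 at least 1.27-fold, USP26 at least 1.09-fold and PDE8B at least 1.01-fold. OR9K2 is itself an olfactory receptor gene, one of those that set the floor.

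Genes of DNA replication and cell division were lower with miR-27b-3p than with let-7d-5p. Entry into S phase is driven by E2F factors, which switch on the replication genes, and a later wave, read by promoters with a CHR element, supplies the proteins of mitosis. Of 54 G1/S and E2F target genes above the floor, 49 were lower and 5 higher, against 49.3% lower among all genes. Their median was -0.56. At 1.5-fold, 20 were lower and 0 higher, where 3.87% and 3.79% of all genes passed. In RNA from whole cultures, fewer dividing cells and less of each messenger per cell cannot be told apart. Of 47 G2/M genes, 36 were lower, with a median of -0.26 and 12 at least 1.5-fold lower.

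Among the G1/S genes, ZNF367, an E2F-driven zinc finger protein, read 6.30 on the control array, 7.29 with let-7d-5p, 6.17 with miR-27b-3p and 8.24 with miR-151a-5p. MYBL2, the MYB factor that links replication to mitotic genes, read 10.17, 10.13, 9.12 and 11.43. POLE2, a subunit of DNA polymerase epsilon, read 6.62, 6.64, 5.65 and 7.64. In MYBL2 and POLE2 the control and let-7d-5p arrays lay together, miR-27b-3p below them and miR-151a-5p above. E2F1 itself read 7.69, 7.64, 6.74 and 8.58, and DTL, which marks the licensing factor CDT1 for destruction, read 11.61, 11.54, 10.60 and 12.99. The replicative helicase subunits MCM2, MCM4 and MCM6 were at -0.70, -0.69 and -0.68, and the 5 members on the higher side, which included UHRF1 and TIPIN, were at 0.11 or less.

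Among the G2/M genes, the mitotic motors KIFC1 and KIF2C read 9.26 and 8.57 with let-7d-5p and 8.29 and 7.64 with miR-27b-3p, and NCAPH, a condensin subunit, read 9.27 and 8.43. CDK1, the kinase that starts mitosis, read 9.35 and 8.76. Of the 47 members, 0 were 2-fold lower. The G2/M members on the higher side were led by CDCA8, a subunit of the chromosomal passenger complex, at 0.53, SGO2, a cohesin protector, at 0.38 and CKS2, a partner of CDK1, at 0.31.

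Other cell division genes, which were not on the G2/M list and entered none of its counts, were 2-fold lower. WEE1, the kinase that restrains CDK1, was among the 12 lowest genes of the whole comparison and read 10.94 on the control array, 11.14 with let-7d-5p, 9.88 with miR-27b-3p and 11.89 with miR-151a-5p. The centromere protein CENPM was also among those 12, at 7.53, 7.55, 6.36 and 8.82. The kinetochore gene SPC25 and the motor KIF4A, at -1.04 and -1.02, were picked after their values were seen.

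The replication-dependent histones, which are made in S phase, had a median of -0.19. Of 38 above the floor, 26 (68.4%) were lower and 11 higher, against 49.3% lower among all genes. H3C8 read 7.61, 6.98, 5.78 and 8.11, and H3C10 was at least 1.37-fold lower with miR-27b-3p, where it lay below the floor. Histone genes have near-identical copies, so the values of single members are uncertain.

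The other arrays place these 3 lists. Measured from the let-7d-5p array, the G1/S genes had a median of 0.05 with the control mimic and of 0.99 with miR-151a-5p. For the G2/M genes these medians were 0.22 and 0.86, and for the histones 0.32 and 0.95. The let-7d-5p array thus lay near the control for the G1/S genes and below it for most of the other 2 lists. The miR-27b-3p array was the lowest of the 4 for 48 of 54, 35 of 47 and 26 of 38 genes. Over all genes above the floor that share was 26.3%.

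**Figure D4:**
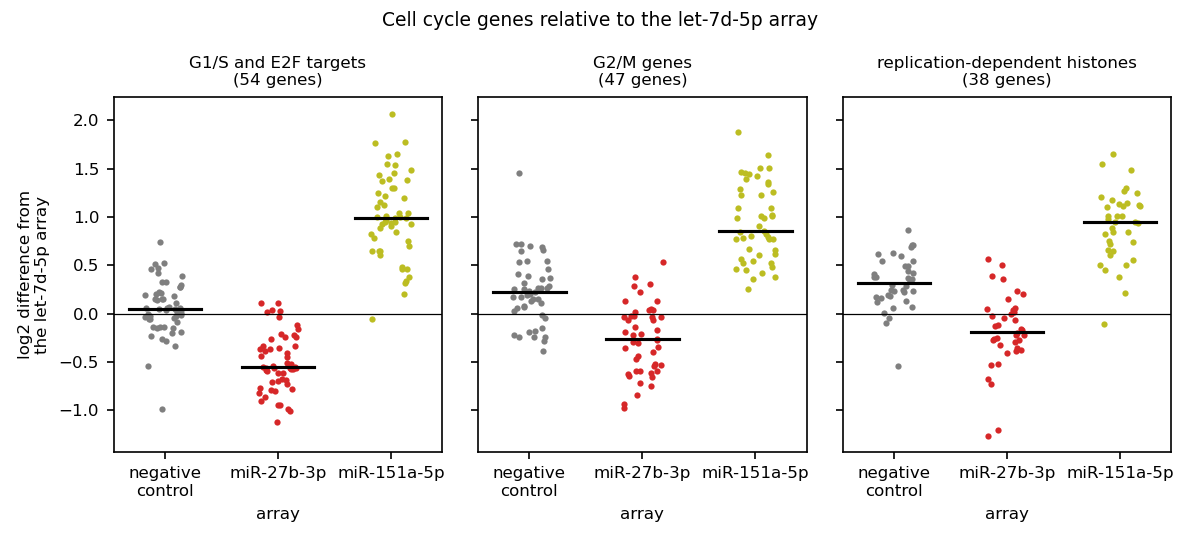
Log2 difference of each array from the let-7d-5p array (vertical) for the G1/S, G2/M and histone genes above the floor, 1 point per gene, with the black line at the median. The miR-27b-3p medians are -0.56, -0.26 and -0.19, and the miR-151a-5p medians are 0.99, 0.86 and 0.95.

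Genes that hold back the cycle were mixed. Of 23 CDK inhibitor and p53 target genes above the floor, 13 were higher and 10 lower, with a median of 0.03. CDKN1B, the inhibitor p27, read 8.52, 8.26, 9.03 and 8.31, and TP53INP1, a stress-induced p53 partner, read 7.51, 7.97, 8.95 and 7.53. Both were highest with miR-27b-3p. CDKN1A, the inhibitor p21, was at 0.35, and the stress gene GADD45B was at -0.74.

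Promoters of the lower cell cycle genes are shown because most of these genes lay on the same side and their lists are tied to known promoter elements. The search covered 250 bases before and 50 after each start in RefSeq promoters of GRCh38.p14, on both strands, for the E2F words TTTCCCGC, TTTGGCGC, TTTCGCGC and TTTGCCGC, and for the CHR words TTTGAA and TTCGAA. The letters of the E2F and CHR words do not overlap in the windows below, where the match is in capitals and each window is read along the gene's own strand. The windows lie at chr9:96418373-96418402 (minus strand), chr14:49688201-49688230 (minus), chr1:212035729-212035758 (plus), chr20:33686387-33686416 (minus), chr6:33391815-33391844 (plus) and chr15:69414282-69414311 (plus), in the order listed.
ZNF367, E2F word: cgaaatgtaacGCGGGAAAagccggggcag
POLE2, E2F word: ctgcggcggtgGCGCCAAAtcgcaaatatg
DTL, E2F word: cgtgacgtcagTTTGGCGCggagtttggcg
E2F1, E2F word: ggcaaaaaggaTTTGGCGCgtaaaagtggc
KIFC1, CHR word: tggccgttggaaTTCAAAagtggcgggtgt
KIF23, CHR word: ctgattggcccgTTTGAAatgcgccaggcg
An E2F word was found in 27 of the 47 G1/S genes with a promoter in the table (57.4%) and in 11 of the 18 that were at least 1.5-fold lower (61.1%). It was found in 3.99% of all 27305 promoters and in 6.33% of those of genes above the floor. A CHR word was found in 30 of 40 G2/M genes (75%) and in 9 of the 11 that were at least 1.5-fold lower (81.8%). It was found in 19.5% of all promoters and in 16.3% of those of genes above the floor. Among all genes at least 1.5-fold lower with miR-27b-3p, 9.14% held an E2F word, and among those at least 1.5-fold higher, 4.84%. For a CHR word these shares were 20.5% and 15.7%. The 33 lower genes with an E2F word include the 11 G1/S genes counted above, and the 74 with a CHR word include the 9 G2/M genes. The shares among lower genes are therefore not separate from the 2 lists. The lists themselves are tied to these elements, so high shares within them say nothing about the difference between the arrays. A match is a run of letters and does not show that a factor was bound.

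The secreted signals of macrophages included genes on both sides. Of 29 inflammatory cytokine and chemokine genes above the floor, 15 were higher and 14 lower, with a median of 0.05. At 2-fold, 2 were higher and 3 lower, where 0.470% and 0.504% of all genes passed. CCL3, a chemokine for monocytes and T cells, read 15.03 on the control array, 14.76 with let-7d-5p, 15.80 with miR-27b-3p and 15.46 with miR-151a-5p. Its near-identical copy CCL3L3 read 13.72, 13.33, 14.57 and 14.27, and the probe sets may share transcripts. Both were lowest with let-7d-5p and highest with miR-27b-3p. CCL18, a chemokine of alternatively activated macrophages, was at 0.83.

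On the lower side, CCL2, the chief monocyte chemoattractant, read 7.05, 8.50, 7.33 and 7.90, CCL8, a related chemokine, read 6.37, 7.57, 6.63 and 7.03, and CSF1, the macrophage growth factor, read 11.26, 12.14, 11.03 and 11.55. For all 3 the let-7d-5p array was the highest of the 4, while the miR-27b-3p array lay close to the control. TNFSF4, the ligand of the costimulatory receptor OX40, was at -1.01, opposite to TNFSF18. The interleukin 1 receptor chains IL1R1 and IL1RAP were at -0.71 and -0.90. NF-kB pathway genes had a median of 0.07 and 0 of 19 past 1.5-fold, where 3.79% of all genes were higher and 3.87% lower.

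Receptors of foreign nucleic acid lay on both sides, with TLR7, TLR8 and CGAS past 1.5-fold. Of 20 sensor and adaptor genes above the floor, 8 were higher and 11 lower, with a median of -0.04. At 1.5-fold, 2 were higher and 1 lower, where 3.79% and 3.87% of all genes passed. TLR8, the other endosomal receptor of single-stranded RNA, read 6.46 on the control array, 6.86 with let-7d-5p, 7.61 with miR-27b-3p and 5.57 with miR-151a-5p. The adaptor of both receptors, MYD88, was at 0.46. CGAS, the sensor of cytosolic DNA, was at -0.76. The sensors of double-stranded RNA differed little, with TLR3 at 0.11, RIGI at 0.04 and IFIH1 at -0.09.

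Interferon-stimulated genes were close to level between the 2 mimics. All 57 measured members were above the floor, with a median of -0.06, and 36 (63.2%) were lower, against 49.3% of all genes. At 1.5-fold, 0 passed in either direction, where 3.79% of all genes were higher and 3.87% lower. The antiviral genes RSAD2 and OASL were at -0.50 and -0.48, and TNFSF10, the death ligand TRAIL, was at 0.46. CXCL10, an interferon-induced chemokine, read 10.98 on the control array, 12.89 with let-7d-5p, 12.88 with miR-27b-3p and 12.35 with miR-151a-5p, and CXCL11 read 8.51 and 8.54 with let-7d-5p and miR-27b-3p. CXCL10 thus differed by only -0.01 between the compared arrays. Of 26 genes of the interferon-gamma response, GBP4 and NLRC5 were higher by 0.70 and 0.60, and IDO1, which degrades tryptophan, was at -0.75. IL12RB2, a chain of the interleukin 12 receptor, was at 0.14.

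Lipid genes controlled by the nuclear receptors PPAR and LXR were mostly lower with miR-27b-3p, in 18 of 24 (75%), against 49.3% of all genes. Their median was -0.18. This list shares 7 genes above the floor with the miR-27 targets, PPARG, LPL and GPAM among them, so its count is not separate from theirs. PDK4, a kinase that turns cells from glucose to fat as fuel, read 7.06, 7.19, 6.11 and 6.58 and is not on the target list. FABP4 and PLIN2, which carry and coat cellular fat, were at -0.45 and -0.44, and PPARD was at 0.53. Cholesterol synthesis genes had a median of -0.03, and MVD was the only one of 21 past 1.5-fold, at -0.81. Over all genes, 3.87% were at least 1.5-fold lower.

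Metallothioneins, which bind zinc and copper, were lower with miR-27b-3p in 7 of 8, against 49.3% of all genes, with a median of -0.54. MT1X read 9.80 on the control array, 10.78 with let-7d-5p, 9.85 with miR-27b-3p and 9.94 with miR-151a-5p, and MT2A read 12.19 with let-7d-5p and 11.54 with miR-27b-3p. The let-7d-5p array was the highest of the 4 for 7 of the 8 genes, against 23.9% of all genes above the floor, and MT1M, at 0.36, was the exception. These genes too have near-identical copies. HMOX1, the haem-degrading stress enzyme, read 12.07, 12.35, 11.40 and 11.47, a difference of -0.95. Its control array lay nearer let-7d-5p, and its miR-151a-5p array lay with miR-27b-3p. The cystine carrier SLC7A11 was at -0.92. DDIT4, a stress-induced brake on the mTOR kinase, read 7.14 with let-7d-5p and 8.14 with miR-27b-3p. It was the only one of 31 stress response genes at 2-fold, where 0.470% of all genes were that much higher.

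Surface and junction genes differed singly. CLDN1, a claudin of epithelial tight junctions, read 5.41 on the control array, 6.14 with let-7d-5p, 7.48 with miR-27b-3p and 6.64 with miR-151a-5p. It was highest with miR-27b-3p and lowest on the control array. Of 7 epithelial markers, only CLDN1 and the keratin KRT8, at 0.61, lay above the floor, and EPCAM lay below it on both arrays at 3.63 and 3.53. The adhesion protein CDH2 was at 0.81, and the integrin list had a median of -0.05 over 27 genes, with ITGA3 at -0.63 and ICAM2, a ligand of leukocyte integrins, at -0.78. The receptor kinase AXL, which takes part in clearing dying cells, was at -0.81, MET, the hepatocyte growth factor receptor, was at -0.35, and the phosphatase DUSP1 was at 0.69.

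**Figure D5:**
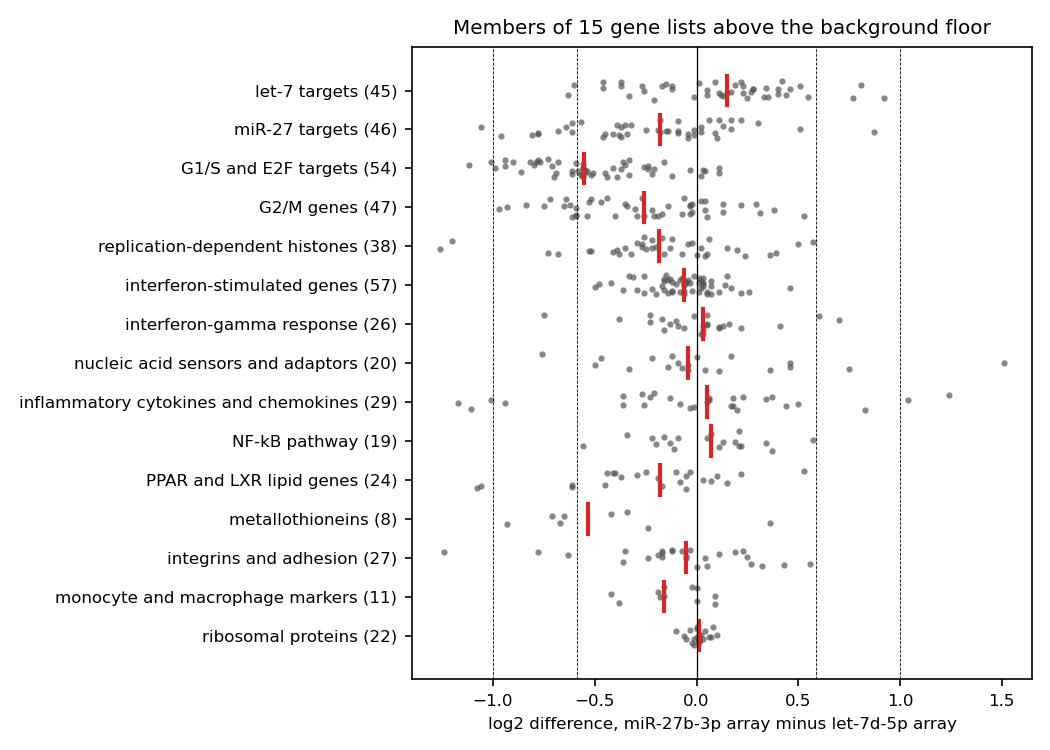
Log2 difference, miR-27b-3p array minus let-7d-5p array (horizontal), for the members of 15 gene lists above the floor, with the number of members in brackets, 1 grey point per gene and a red line at the median. Dashed lines mark 1.5-fold and 2-fold; the G1/S median is -0.56 and the ribosomal proteins lie between -0.10 and 0.10.

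Lists with narrow spreads show how alike the arrays were. The 22 ribosomal proteins lay between -0.10 and 0.10 with a median of 0.01, and the 13 reference genes between -0.07 and 0.19. Of 29 proteasome and 26 respiratory chain genes, 0 passed 1.5-fold, where 3.79% of all genes were higher and 3.87% lower by that much. The 11 monocyte and macrophage markers had a median of -0.16 with 0 past 1.5-fold, and the lowest were CD163, a haemoglobin scavenger receptor, at -0.42 and the Fc receptor FCGR1A at -0.38.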

How the data were processed

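The authors deposited log2 signals, 1 per probe set, from Affymetrix Clariom S arrays. They were made with RMA in Transcriptome Analysis Console 4.0, per the submitters' processing notes. RMA corrects background, equalizes the arrays and summarizes probes, and it would remove a shift shared by a whole array. No genome build of the probe annotation was given in the sources used here. Of the probe sets, 17709 were paired with 1 gene in the platform annotation and 3739 with none. For the 20 genes with several, the probe set with the highest mean was used. No further normalization was applied, and levels are compared between arrays, not between genes. RNA was extracted with Trizol per the labels and with an RNeasy kit per the study's methods.

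The size rules were 2-fold for single genes and 1.5-fold for members of lists. Where 1 array lay below the floor, its value was set to the floor for the bound. With 1 array a side the number of arrays limits the precision, and the spread given is over genes, not cultures. Named were the 12 highest and 12 lowest genes above the floor on both arrays, the 5 highest and lowest above it on 1, up to 4 members of each of 38 lists with the largest differences and any past 2-fold, target genes past 1.5-fold, and 11 genes of RNA sensing, chemokines and microRNA processing. Genes named outside this rule, such as SPC25 and KIF4A, were chosen after their values were seen. The comparison, lists and rules were chosen with earlier results of these data known. Of 1001 listed genes, 889 were measured. Alternatives were other size rules, filters, a pseudocount of 16, quantile and loess normalization, and the mean over probe sets or members. The planned grouping of genes by seed sites was not run, since 3′ untranslated sequences were not used here. Python 3.11.15, numpy 2.4.6, pandas 2.3.3, scipy 1.17.1, statsmodels 0.14.6 and matplotlib 3.10.9 were used.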

Additional observations from a re-analysis of the deposited data

How the results depend on the processing

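The counts past 2-fold (56 higher and 60 lower with miR-27b-3p) depended on the filter and the scale. Without the floor they were 111 and 97, with the floor required on both arrays 33 and 41, and with a pseudocount of 16 on the linear signal 24 and 27. At 3-fold they were 0 and 1, and at 1.5-fold 451 and 461. Quantile normalization, loess centring and the mean over probe sets kept both within 1.5 times. The medians of the let-7 target, miR-27 target, G1/S and G2/M lists moved by less than 0.1 under all 7 alternatives run. Of the other 34 lists, 5 moved further: the mean was 0.28 for tight junction genes and 0.23 for the phagocyte oxidase, and without the floor the T and NK, B-cell and epithelial marker medians were -0.09, 0.26 and 0.41. Of the 184 genes followed, 13 no longer reached 2-fold with the pseudocount, and 0 changed direction under any alternative run. Among the 13 were GPAM (-0.86), ZNF367 (-0.97), MYBL2 (-0.99), PDK4 (-0.93), TNFSF4 (-0.85) and DDIT4 (0.92). MYBL2 lost 2-fold under quantile normalization (-0.99) and POLE2 reached it (-1.02). No paired analysis was possible because each group had 1 array. Depth does not apply to arrays, and signals near the floor spread most.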

Other observations

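The single genes given here were chosen after their values were seen. KLRC1 and KLRC2, the NKG2A and NKG2C receptors of natural killer cells, read 8.01 and 8.45 with let-7d-5p and 6.96 and 7.30 with miR-27b-3p, and the copies are too alike to be told apart with certainty. CD84, a self-ligand receptor of the SLAM family, read 8.28 on the control array, 8.03 with let-7d-5p, 9.06 with miR-27b-3p and 7.78 with miR-151a-5p. Its relatives CD244 and SLAMF6 were at 0.79 and 0.69, and SLAMF7 was at -0.25. MICA, the relative of MICB, was at 0.03, and ULBP3, another NKG2D ligand, was at -0.65.

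SYT11, a vesicle protein that restrains secretion in macrophages, read 8.38, 9.26, 10.38 and 8.80 on the 4 arrays, in the order used above. WIPI1, an autophagy protein that binds membrane lipids, read 10.98, 10.62, 11.63 and 10.87. TNFRSF21 and TNFSF14, members of the tumour necrosis factor receptor and ligand families, were at -0.87 and -0.80.

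Of the 3739 probe sets with no gene name, 2222 lay above the floor, and 23 were at least 2-fold higher and 18 at least 2-fold lower with miR-27b-3p. Of the 11913 named genes above the floor, 0.470% and 0.504% passed, which are smaller shares. Over the 12129 genes above the floor on any of the 4 arrays, 117 differed 2-fold between the miR-27b-3p and let-7d-5p arrays. The same count was 85 between let-7d-5p and control, 117 between miR-27b-3p and control, 146 between miR-151a-5p and control, and 308 between miR-151a-5p and miR-27b-3p, pairs that share arrays and are not independent.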
